A study of Mus musculus with 4 samples.

Results

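The 10 genes described here encode the TGF-beta ligands (Tgfb1, Tgfb2 and Tgfb3), the activin subunit Inhba, the latent TGF-beta binding proteins Ltbp1, Ltbp2 and Ltbp3, and the receptors Tgfbr1, Tgfbr2 and Tgfbr3. They form a list of names, with no threshold on their values, and all 10 of 10 had a probe well above background on all 4 arrays, among 22926 features tested in all. RNA from hearts of male mice was measured on 1-colour Agilent arrays on day 5 after an infarct made by tying off the left anterior descending artery. The KO group (replicates 3 and 4) carries a deletion of S1pr1, a receptor for sphingosine 1-phosphate, in endothelial cells, in mice labelled VE-Cad-Cre-S1pr1 fl/fl. The WT group (replicates 1 and 3) had the same ligation, and no sham-operated or uninjured hearts were analysed here. VE-cadherin is made by endothelial cells, so its promoter limits Cre to them and to cells descended from them, whereas the RNA came from heart tissue with all its cell types. Strain, age, the region of the heart taken, and whether WT mice carried the floxed allele or Cre are not given in the sources used here. Nor do the sources say that each array is a separate animal, so p-values measure the spread between these arrays.

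TGF-beta is secreted in a latent complex, in which the mature dimer is held by its own propeptide. Most latent binding proteins tether that complex to fibrillin microfibrils, and integrins, proteases or thrombospondin release the ligand, which then binds TGFBR2 and, through it, TGFBR1, the kinase that phosphorylates SMAD2 and SMAD3. In a healing infarct this pathway is known for turning fibroblasts into matrix-making myofibroblasts and for restraining inflammation.

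Promoter windows from RefSeq (GRCm38.p6), running from 250 bases before each gene's start to 50 bases from the start on, were found for 8 of the 10 genes, and Tgfb3 and Tgfbr3 had none. Those of 4 genes are shown because the ligands Tgfb1 and Tgfb2 differed in how far they moved between arrays, and Inhba and Ltbp2 moved furthest. The windows lie at chr7:25686752-25687051 on the plus strand (Tgfb1), chr1:186705940-186706239 on the minus strand (Tgfb2), chr13:16011601-16011900 on the plus strand (Inhba) and chr12:84876442-84876741 on the minus strand (Ltbp2). Each holds the upstream flank and the first bases of the transcript. Capitals mark matches, on either strand, to CAGAC (the SMAD box), GGGCGG (the GC box), TATAAA (the TATA box) or TGANTCA (the AP-1 site).
Tgfb1: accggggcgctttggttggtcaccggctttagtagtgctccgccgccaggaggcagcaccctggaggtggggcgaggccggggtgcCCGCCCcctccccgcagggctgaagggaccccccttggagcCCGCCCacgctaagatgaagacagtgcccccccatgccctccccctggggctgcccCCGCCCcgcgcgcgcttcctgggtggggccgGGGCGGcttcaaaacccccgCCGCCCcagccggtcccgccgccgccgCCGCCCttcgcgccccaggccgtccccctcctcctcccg
Tgfb2: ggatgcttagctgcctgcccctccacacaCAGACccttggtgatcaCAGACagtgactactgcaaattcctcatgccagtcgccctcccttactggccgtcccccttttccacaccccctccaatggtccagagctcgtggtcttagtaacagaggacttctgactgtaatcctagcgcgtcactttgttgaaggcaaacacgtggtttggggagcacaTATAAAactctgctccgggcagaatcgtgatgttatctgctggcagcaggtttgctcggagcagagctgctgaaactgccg
Inhba: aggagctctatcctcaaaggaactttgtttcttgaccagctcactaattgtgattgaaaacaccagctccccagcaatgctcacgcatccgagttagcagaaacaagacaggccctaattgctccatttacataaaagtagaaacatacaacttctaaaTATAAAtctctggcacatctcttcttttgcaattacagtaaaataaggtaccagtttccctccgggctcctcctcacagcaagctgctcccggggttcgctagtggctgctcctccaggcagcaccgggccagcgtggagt
Ltbp2: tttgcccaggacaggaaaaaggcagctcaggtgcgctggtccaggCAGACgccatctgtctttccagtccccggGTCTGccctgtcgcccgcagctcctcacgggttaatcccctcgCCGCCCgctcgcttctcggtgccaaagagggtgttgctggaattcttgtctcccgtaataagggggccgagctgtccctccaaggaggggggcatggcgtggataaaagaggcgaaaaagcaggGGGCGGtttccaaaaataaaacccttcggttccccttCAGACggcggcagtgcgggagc

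The Tgfb1 window was 77% G or C and held 6 GC boxes and no match to the other motifs. The Tgfb2 window held a TATA box beginning 31 bases before the start and SMAD boxes beginning 221 and 204 bases before it. Of these motifs the Inhba window held only a TATA box, beginning 91 bases before the start. The Ltbp2 window held SMAD boxes beginning 205 and 176 bases before the start and 29 bases into the transcript, with GC boxes beginning 133 and 9 bases before the start. These short motifs are common: of 32851 mouse windows of this length, 49.6% held a SMAD box, 35.7% a GC box, 13.6% a TATA box and 7.81% an AP-1 site. A match describes the letters and is not a binding site. In these 4 windows no matches overlapped. Of the 8 genes with a window, only Ltbp3 had an AP-1 site (TGAGTCA), which began 6 bases before the start and overlapped a SMAD box.

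The 4 arrays lay on 1 slide and were scanned in 1 scan, and since KO took positions 2 and 1 and WT positions 4 and 3, position and genotype cannot be told apart. Levels are given as log2 processed signal minus the array's 75th percentile, so 0 is the signal at that percentile, and levels of different genes cannot be set against each other. WT replicate 1 stood apart. Probes well above background made up 73.4% and 71.5% on KO replicates 3 and 4 and 54.3% and 69.4% on WT replicates 1 and 3. The 16 ventricular cardiomyocyte markers averaged 6.05 and 6.85 in KO and 2.07 and 6.25 in WT, and all 16 were well above background on every array. KO replicate 4 stood apart in the other direction for scar cells: the 10 myofibroblast markers averaged 2.57 and -0.87 in KO replicates 3 and 4 and 3.45 and 2.59 in WT replicates 1 and 3. S1pr1, the deleted gene, was at -2.69 and -2.30 in KO and 0.43 and 0.95 in WT, a difference of -3.19 (SE 0.38), or 9.1-fold lower in KO, with an adjusted p of 0.74 in limma.

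No feature of the 22926 passed an adjusted p of 0.05 in limma (0%; the smallest was 0.642), and 633 (2.76%) had an unadjusted p under 0.05, 323 of them higher in KO and 310 lower. None of the 10 genes did. With 2 arrays against 2, the exact permutation test cannot give a two-sided p below 0.333. What follows therefore describes levels on each array. The mean of 9 of the 10 genes was lower in KO, as it was for 45.2% of all features. The median difference, KO minus WT, was -0.61 on the log2 scale over the 10 genes and 0.07 over all features. Over the 10 genes it was -0.99 without KO replicate 3, -0.25 without KO replicate 4, -0.27 without WT replicate 1 and -1.0 without WT replicate 3. In RNA from whole tissue, fewer cells of a type and less RNA per cell cannot be told apart.

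**Figure D1:**
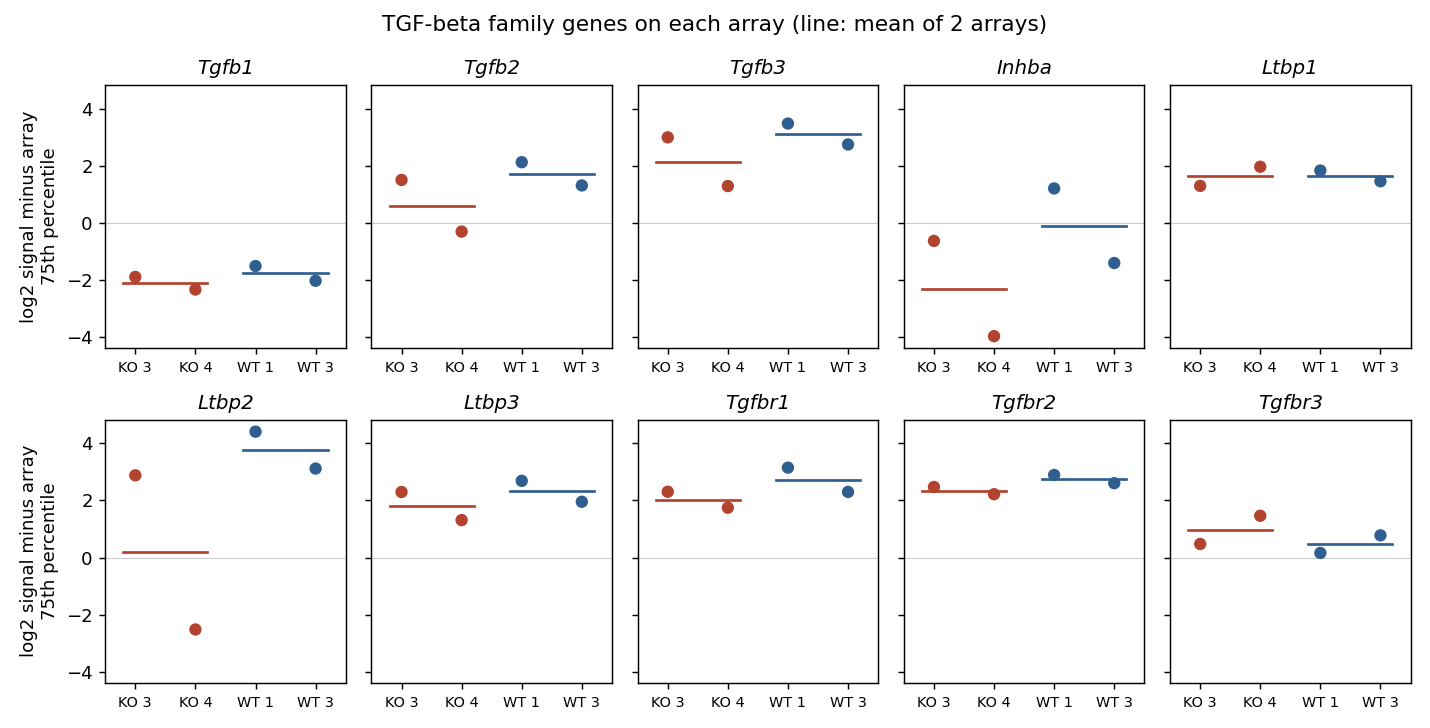
Level of each of the 10 genes on each array (y axis, log2 processed signal minus the array's 75th percentile); red points are KO replicates 3 and 4, blue points WT replicates 1 and 3, and a line is the mean of 2 arrays. For 8 of the 10 genes WT replicate 1 is the highest point and KO replicate 4 the lowest, and only Ltbp2 and Tgfbr2 have no overlap between genotypes.

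The 3 TGF-beta ligands shared 1 order of arrays, with WT replicate 1 highest, then KO replicate 3, WT replicate 3 and KO replicate 4. Tgfb1, the isoform most often tied to wound repair, was at -1.90 and -2.34 in KO replicates 3 and 4 and at -1.52 and -2.03 in WT replicates 1 and 3. The genotypes overlapped, since KO replicate 3 lay above WT replicate 3. The means were -2.12 ± 0.31 in KO and -1.77 ± 0.37 in WT (SD, n = 2 each), and the difference was -0.34 (SE 0.38, 95% interval -1.37 to 0.68, adjusted p = 0.766 in limma). Leaving out KO replicate 3 made it -0.56, KO replicate 4 -0.12, WT replicate 1 -0.08 and WT replicate 3 -0.60. Its range over the 4 arrays was 1.77-fold, and 58.1% of all features had a larger one. The array carries 10 spots of the Tgfb1 probe. Their SD within an array was 0.04 and 0.06 in KO and 0.10 and 0.07 in WT, after 2 outlier spots were dropped on KO replicate 3. Spot error was thus well under the gap of 0.44 between the KO arrays and of 0.52 between the WT arrays.

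Tgfb2, an isoform known for its part in heart valve development, was at 1.5 and -0.31 in KO and 2.12 and 1.31 in WT. KO replicate 4 was low and the other 3 arrays lay within 0.81 of each other. The difference was -1.12 (SE 0.74, 95% interval -3.10 to 0.86, adjusted p = 0.74 in limma), 2.17-fold lower in KO by the means, but the gap inside KO was 1.81. Dropping KO replicate 4 made it -0.22, and dropping KO replicate 3 made it -2.02. A second Tgfb2 probe gave 0.11 and -1.36 in KO and 1.48 and 0.02 in WT, a difference of -1.38 in the same direction.

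Tgfb3, an isoform known for its part in palate fusion, was at 2.99 and 1.29 in KO and 3.48 and 2.75 in WT. Again KO replicate 4 was the low array, and KO replicate 3 lay above WT replicate 3 by 0.25. The difference was -0.97 (SE 0.70, 95% interval -2.85 to 0.90, adjusted p = 0.74 in limma). Leaving out KO replicate 4 gave -0.12, and leaving out KO replicate 3 gave -1.82. Tgfb3 also has 10 spots, whose SD was 0.04 on each KO array and 0.02 and 0.03 in WT, well under the gap of 1.71 between the KO arrays. The plot of single spots shows these values for both genes.

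**Figure D2:**
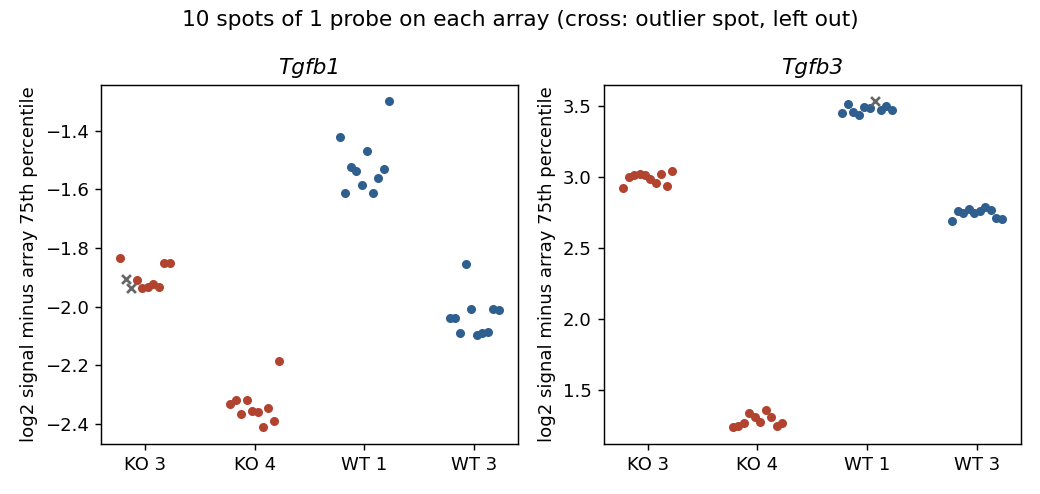
Each spot of the Tgfb1 probe (left) and the Tgfb3 probe (right) on each array, with 10 spots per array; y axes are log2 processed signal minus the array's 75th percentile and differ between panels. Red is KO, blue is WT and a cross is an outlier spot that was dropped; spots of 1 array lie close together, and for Tgfb3 the arrays do not touch.

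Inhba encodes the subunit that forms activin A, a relative of TGF-beta that signals through activin receptors to SMAD2 and SMAD3. It was at -0.63 and -3.97 in KO and 1.2 and -1.41 in WT. The genotypes overlapped, and the arrays spread widely inside each of them, by 3.34 in KO and 2.61 in WT. The difference was -2.20 (SE 1.47, 95% interval -6.14 to 1.74, adjusted p = 0.74 in limma). Between the replicate 3 arrays the sign was the other one, with KO above WT by 0.77. The highest array was 36.1 times the lowest, and only 1.34% of all features had a larger range. On the lowest array, KO replicate 4, the processed signal was only 39, from 1 spot, though flagged well above background. With another background correction and scaling the difference was -1.71. Dropping KO replicate 4 made the difference -0.53, and dropping WT replicate 1 made it -0.89.

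Among the latency proteins, Ltbp2 moved furthest of the 10 genes. It is a microfibril protein that, unlike its relatives, does not bind latent TGF-beta. Its level was 2.88 and -2.52 in KO and 4.41 and 3.12 in WT. The genotypes did not overlap, but KO replicate 3 was only 0.24 below WT replicate 3, and KO replicate 4 was 5.40 below KO replicate 3. The processed signal itself was 6936 and 108 in KO and 23661 and 7426 in WT, well above background each time. The difference was -3.58 (SE 1.90, 95% interval -8.70 to 1.53, adjusted p = 0.74 in limma), 12.0-fold lower in KO by the means. Without KO replicate 4 it was -0.88, and it reached -6.28 when KO replicate 3 was dropped, so 1 array decides its size. The 4 arrays spanned 122-fold, and 0.227% of all features spanned more.

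Ltbp1 and Ltbp3 both bind the latent complex. Ltbp1 was at 1.29 and 1.96 in KO and 1.83 and 1.46 in WT, and KO held both the lowest and the highest array. Its difference was -0.02 (SE 0.40, 95% interval -1.09 to 1.06, adjusted p = 0.989 in limma), and it changed sign, to 0.17, without WT replicate 1 and, to 0.32, without KO replicate 3. Ltbp3 was at 2.30 and 1.31 in KO and 2.69 and 1.95 in WT. The genotypes overlapped, and the difference was -0.52 (SE 0.51, 95% interval -1.90 to 0.86, adjusted p = 0.749 in limma). It was -0.02 without KO replicate 4. A second Ltbp3 probe gave -0.31.

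Tgfbr1, the signalling kinase, was at 2.31 and 1.75 in KO and 3.15 and 2.30 in WT. The replicate 3 arrays differed by 0.01, and WT replicate 1 was the high array. The difference was -0.70 (SE 0.46, 95% interval -1.93 to 0.53, adjusted p = 0.74 in limma), and without WT replicate 1 it was -0.27. A second Tgfbr1 probe read -4.15 and -4.89 in KO and -3.43 and -4.03 in WT, a difference of -0.79, and on it the genotypes did not overlap. Tgfbr2, the receptor that binds ligand and activates TGFBR1, was at 2.47 and 2.22 in KO and 2.89 and 2.61 in WT. These did not overlap, with a difference of -0.40 (SE 0.33, 95% interval -1.29 to 0.48, adjusted p = 0.74 in limma). The second Tgfbr2 probe did overlap: it read -3.02 and -3.26 in KO and -2.42 and -3.13 in WT.

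Tgfbr3, or betaglycan, the co-receptor that presents ligand, TGF-beta2 above all, to TGFBR2, was the only member with a higher mean in KO. It was at 0.48 and 1.46 in KO and 0.16 and 0.78 in WT. The genotypes overlapped, since WT replicate 3 lay above KO replicate 3. The difference was 0.50 (SE 0.50, 95% interval -0.84 to 1.84, adjusted p = 0.749 in limma), and 0.01 without KO replicate 4. The plot of differences sets each gene's interval beside the difference between the replicate 3 arrays.

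**Figure D3:**
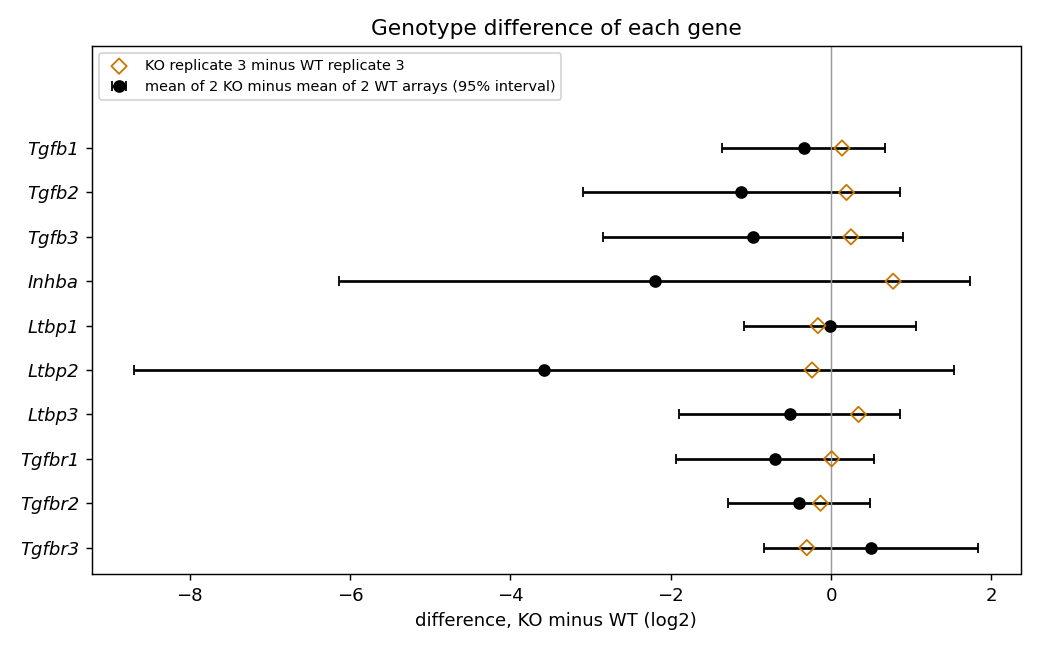
Difference of each gene, KO minus WT (x axis, log2): black points are the difference of 2-array means with the limma 95% interval, and open diamonds are KO replicate 3 minus WT replicate 3. Every interval includes 0, and 6 of the 10 diamonds lie above 0.

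Across the 10 genes, 8 had WT replicate 1 highest and KO replicate 4 lowest, a pattern held by 23.5% of all features. WT replicate 1 was highest for the same 8 genes (39% of all features), and KO replicate 4 lowest for them (27.6% of all features). For 8 of 10 the gap between the KO arrays was larger than the difference between genotypes. Non-overlapping genotypes were seen for 2 of 10, both lower in KO, against 34.4% of all features in either direction and 16.1% lower in KO. KO replicate 3 was above WT replicate 3 for 6 of 10 genes (45.5% of all features), and the median of that difference was 0.07 over the 10 genes and -0.03 over all features. The count with a lower KO mean was 9 without KO replicate 4 or WT replicate 3, and 8 without KO replicate 3 or WT replicate 1.

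The cell type markers differed between the same arrays. The 14 pan-macrophage markers found on the array, of 15 listed, averaged 2.09 and 0.66 in KO and 3.24 and 2.25 in WT, and all 14 were well above background on every array. Of the 10 myofibroblast markers, which include Postn, Cthrc1 and Acta2, all 10 were lowest on KO replicate 4, and 9 were well above background on every array. The 11 fibroblast markers averaged 1.93 and 1.55 in KO and 1.08 and 1.59 in WT. The 12 endothelial markers averaged 2.09 and 2.04 in KO and 1.53 and 1.89 in WT. The 10 smooth muscle and pericyte markers averaged 1.67 and 1.40 in KO and 1.08 and 1.53 in WT, and the 8 platelet markers -3.80 and -3.37 in KO and -1.70 and -3.22 in WT. Neutrophil markers (8) averaged -1.41 and -0.96 in KO and -0.20 and -1.93 in WT, and T cell markers (7 of 8 found) -3.08 and -3.73 in KO and -3.18 and -3.80 in WT. B cell markers (4 of 5 tested) averaged -1.77 and -5.36 in KO and -2.06 and -4.15 in WT, and erythroid markers (4 of 5) 0.90 and 1.13 in KO and 2.71 and 1.44 in WT. Epicardial and mesothelial markers (6) averaged -1.47 and -1.50 in KO and -0.79 and -1.84 in WT, and adipocyte markers (4 of 5) -2.97 and -5.29 in KO and 0.54 and -5.36 in WT. The macrophage and myofibroblast lists were highest on WT replicate 1 and lowest on KO replicate 4, as were 8 of the 10 genes. KO replicate 3 and WT replicate 3 were at 2.09 and 2.25 on the macrophage list and at 2.57 and 2.59 on the myofibroblast list. Fits with the macrophage or cardiomyocyte marker mean as covariate are given in the last section. They cannot separate cell content from genotype on 4 arrays, so the part of these cell types in the differences was not tested.

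**Figure D4:**
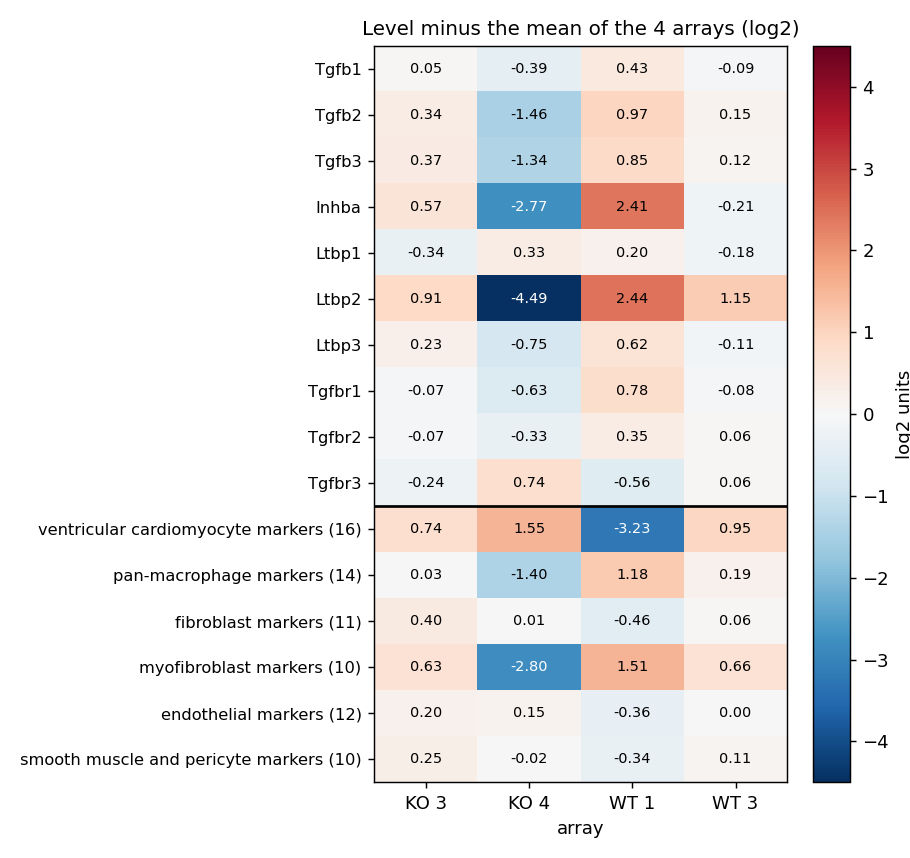
Level of each gene (upper rows) and mean level of each marker list (lower rows, number of markers in brackets) on each array, minus its own mean over the 4 arrays, in log2 units; red is above that mean and blue below. Ltbp2, Inhba and the myofibroblast markers are darkest blue on KO replicate 4, and the cardiomyocyte markers are darkest blue on WT replicate 1.

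Genes with the most similar array pattern were found by the distance between profiles centred on their own mean, over 4 arrays and 12457 genes well above background on all of them. The nearest to Tgfb1 were Man2b2 (0.028), Zbtb8a (0.034) and Glmp (0.035). Among the nearest to Tgfb2 were Rbl1 (0.095) and Pkmyt1 (0.115), and to Tgfb3 Igsf10 (0.097), Rbl1 (0.102) and Cda (0.105). At a wider cutoff of 0.5 log2 units, 3194 genes lay near Tgfb1, 233 near Tgfb2 and 240 near Tgfb3. Distances were not scaled to a gene's range over the 4 arrays, which was 0.82 for Tgfb1, 2.43 for Tgfb2 and 2.19 for Tgfb3. Counts for genes of different range therefore cannot be set against each other. Ltbp2 and Inhba, with the wider ranges of 6.93 and 5.18, had few genes within 0.5. Their nearest genes are named here after their values were seen. Cthrc1 (0.274) and Col11a1 (0.410) were the only 2 within 0.5 of Ltbp2, and Gpr84 (0.283) and Has2 (0.304) were the nearest to Inhba.

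The listed TGF-beta target genes, known to respond to the pathway, all had a lower mean in KO. The lower mean held for 20 of 20 (45.2% of all features), with a median difference of -1.30. Single differences ran from -3.84 to -0.08. Activity of the pathway itself was not measured. Of the 20, 10 did not overlap between genotypes, all lower in KO (16.1% of all features). Some of these nearly touched: for Timp1 the replicate 3 arrays differed by -0.005, and the whole difference of Bhlhe40 was -0.08. None of the 20 passed the adjusted threshold, and 3 had an unadjusted p under 0.05 (2.76% of all features). Tgfbi, a secreted matrix protein, was at 3.07 and 2.10 in KO and 5.31 and 3.94 in WT, a difference of -2.04 (SE 0.65). Both KO arrays lay below both WT arrays, and the replicate 3 arrays differed by -0.87. Ccn2 (connective tissue growth factor) was at 4.74 and 3.91 in KO and 5.97 and 5.31 in WT, and Lox, the collagen crosslinking enzyme, at 1.70 and -1.89 in KO and 3.78 and 2.51 in WT. Their differences were -1.31 (SE 0.47) and -3.24 (SE 1.32). Tgfbi, Ccn2 and Lox each had an adjusted p of 0.74 in limma, and the unadjusted p of Lox was 0.065, above 0.05.

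The other 10 targets overlapped between genotypes. Smad7, the feedback inhibitor, was at 1.77 and 2.18 in KO and 1.82 and 2.30 in WT, and Postn was at 6.13 and 2.48 in KO and 5.89 and 6.09 in WT. For Postn only KO replicate 4 was low. Over the 20 targets KO replicate 4 was lowest for 17 and WT replicate 1 highest for 16, and the median difference was -0.07 between the replicate 3 arrays. It was -2.06 without KO replicate 3, -0.48 without KO replicate 4 and -0.86 without WT replicate 1. Postn, Cthrc1, Acta2, Lox and Fn1 are also in the myofibroblast list above.

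**Figure D5:**
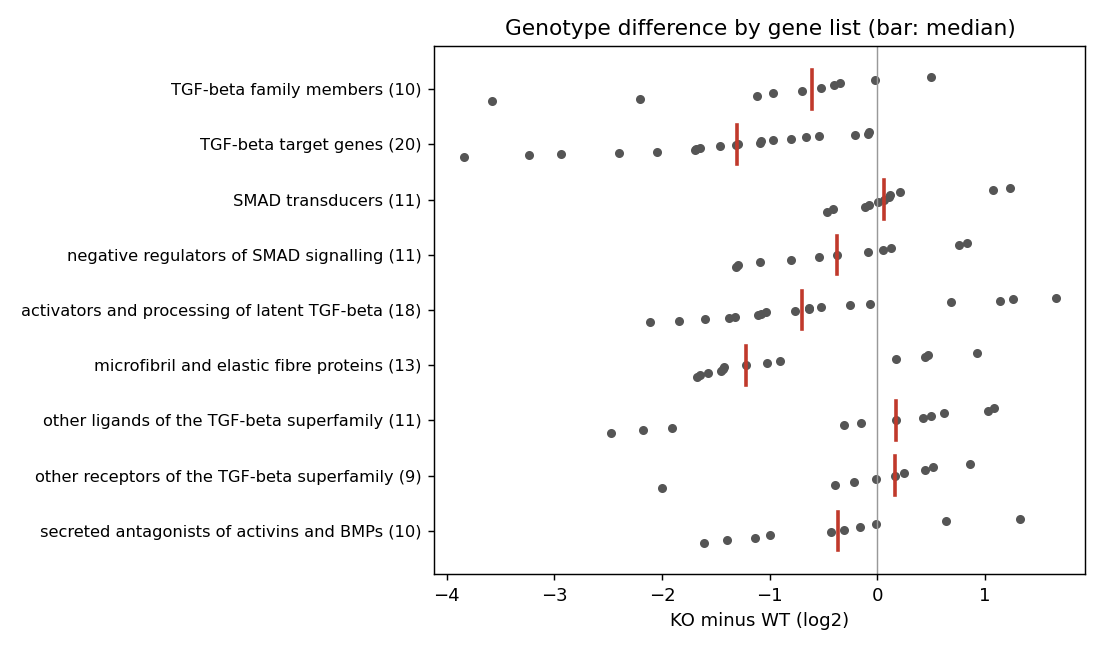
Difference, KO minus WT (x axis, log2), of every tested gene of each list (points; number tested in brackets), with the median as a red bar. The target genes lie wholly below 0, with a median of -1.30, and the SMAD transducers lie around 0, with a median of 0.06.

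Of 11 SMAD transducers and their partners 4 had a lower mean in KO and 7 a higher one, with a median of 0.06. The median turned to -0.10 without KO replicate 4 and to -0.21 without WT replicate 3. Smad2 was at -0.11 and -0.15 in KO and 0.63 and -0.07 in WT, a difference of -0.41 (SE 0.38), and Smad1 differed by -0.47 (SE 0.44). Smad9 (1.23, SE 0.47) and Zfyve9 (1.07, SE 0.57) were each well above background on 1 WT array only. Of the negative regulators 11 of 12 were tested, Bambi falling under the filter, and 7 had a lower mean in KO, with a median of -0.37 that was -0.10 without WT replicate 1. Pmepa1 (-1.09, SE 0.55) and Tgif1 (-1.30, SE 0.73) were lower in KO by the mean. The phosphatase Ppm1a (0.84, SE 0.46) and the inhibitor Smad6 (0.76, SE 0.54) were higher. Each had an adjusted p of 0.74 in limma. Pmepa1, Tgif1, Smad7, Skil and Ldlrad4, all with a lower mean in KO, are also counted among the targets.

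Proteins that process or release latent TGF-beta mostly had a lower mean in KO. Of 18 tested of 19 (Itgb8 was under the filter), 14 had a lower mean in KO (45.2% of all features) and 4 a higher one, with a median of -0.70. Of those 4, only Itga8 was well above background on both WT arrays. For 10 of the 18 the genotypes did not overlap (34.4% of all features), 7 of them lower in KO (16.1%). The median was -1.06 without KO replicate 3, -0.47 without KO replicate 4, -0.31 without WT replicate 1 and -1.2 without WT replicate 3. Over the 15 genes of this list well above background on all 4 arrays it was -0.90. Between the replicate 3 arrays alone, the median over the 18 genes was 0.09. Itga8, an integrin chain that binds the latent complex, was at -0.66 and -0.59 in KO and -2.12 and -1.66 in WT. The KO arrays agreed closely and lay above both WT arrays, a difference of 1.27 (SE 0.34, adjusted p = 0.74 in limma). The urokinase gene Plau (-1.60, SE 0.63) and the membrane protease Mmp14 (-2.11, SE 1.01) were lower by the mean and did not overlap either. Plg (1.14, SE 0.55) was well above background on 1 WT array only. Of 13 microfibril and elastic fibre proteins 9 had a lower mean in KO, with a median of -1.22. Fn1, on this list, is also counted among the targets and the myofibroblast markers. Fbln2 (-1.58, SE 0.65), Fbn2 (-1.68, SE 0.73), Emilin1 (-1.45, SE 0.75) and Efemp2 (-1.43, SE 0.80) had the smallest p-values, all 0.74 after adjustment in limma. The median of that list was -2.16 without KO replicate 3, 0.01 without KO replicate 4 and 0.10 between the replicate 3 arrays alone.

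The wider superfamily was mixed. Of 11 other ligands 5 had a lower mean in KO and 6 a higher one, with a median of 0.18 that turned to -0.02 without KO replicate 4 and to -0.43 without WT replicate 3. Bmp2 was at -3.54 and -4.63 in KO and -1.26 and -2.55 in WT, and the genotypes did not overlap, with a difference of -2.18 (SE 0.64). Inhbb, the other activin subunit, was at -0.92 and -1.27 in KO and 1.91 and -0.28 in WT, a difference of -1.91 (SE 0.81). Gdf15 differed by -2.47 (SE 1.32) and Bmp7 by 0.62 (SE 0.34). The adjusted p was 0.74 in limma for each of these 4.

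Of 9 tested receptors (Acvr1c was under the filter) 4 had a lower mean in KO and 5 a higher one. Acvr2a (0.87, SE 0.44), Acvr2b (0.52, SE 0.40) and Acvr1b (0.44, SE 0.31) encode activin receptors. Acvr1b was well above background on 1 WT array only. Bmpr1b (-2.00, SE 1.1) was so on 1 array of each genotype. Of 10 tested antagonists (Grem1 was under the filter) 8 had a lower mean in KO, with a median of -0.36 that was -0.13 without KO replicate 4, turned to 0.13 without WT replicate 1 and was -0.90 without WT replicate 3. Fstl3, which binds and blocks activin, was at -1.25 and -2.50 in KO and -0.08 and -0.46 in WT, a difference of -1.61 (SE 0.54, adjusted p = 0.74 in limma). Both KO arrays lay below both WT arrays. Fstl1 differed by -1.40 (SE 0.77) and decorin (Dcn), which binds TGF-beta, by 0.64 (SE 0.34). Chrdl1, counted with a higher mean in KO, was well above background on both KO arrays and on no WT array, so no fold is given.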

How the data were processed

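Labels gave each array's genotype and number (KO3, KO4, WT1, WT3). The scanner intensity values are processed signals, background-subtracted by the scanner software, Feature Extraction 11.0.1.1 per the file headers. Agilent Feature Extraction 9.1 is the version in the submitters' processing notes. Other values used are the spot flags (well above background, outlier, saturated), per the file headers. The deposited table of log2 values, with a median of 6.11 in all 4 columns, served as an alternative; no source used here gives its normalization.

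Control and outlier spots were left out, spots of a probe were averaged on the log2 scale, and each array's 75th percentile was subtracted. Probes were kept if measured on all 4 arrays and flagged well above background on 2 or more, with the brightest probe per gene. Names came through RefSeq accessions (GRCm38.p6 table): of 39429 probes, 27234 had 1 symbol, 0 had several and 12195 had none. No spot was saturated (0), and the number of arrays limits the precision. The genotypes were compared with limma 3.58.1 (lmFit, eBayes; two-sided) under R 4.3.3. Adjustment of p-values followed Benjamini and Hochberg and covered 22926 features. The code was tested on simulated data, where recovery of changes was required only at a spread smaller than that of these arrays.

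The genes and lists were chosen with earlier results of these data known. Named are S1pr1, the 10 genes, 4 genes of smallest p in each of 8 other pathway lists, 3 nearest profiles per TGF-beta ligand, and 13 marker lists where cell types are checked; further target genes are named as examples. A pair of genes that this rule names is not reported here. Alternatives were another scaling, filter, background correction, probe rule, floor, variance model or threshold, the deposited table, leaving out each array, the replicate 3 arrays alone, and marker means as covariates.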

Additional observations from a re-analysis of the deposited data

How the results depend on the processing

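The 10 genes gave 170 values under 17 alternatives: 152 kept their sign and 18 changed it, 7 of them with the replicate 3 arrays alone and 11 under other alternatives. The changed filters, the common floor, the variance model and the threshold repeated each gene's main difference exactly. Signs kept under those alternatives therefore say nothing about robustness. Under each of the 16 tested alternatives 0 features were called by limma (lowest adjusted p 0.132). With the macrophage marker mean as covariate, which leaves 1 residual degree of freedom, the differences were 1.12 for Inhba, 0.48 for Ltbp2, 0.45 for Ltbp3, 0.17 for Tgfb1, 0.41 for Tgfb2, 0.46 for Tgfb3, 0.043 for Tgfbr1 and -0.41 for Tgfbr3, all with the sign turned; the median of the 10 genes was 0.29 and 3 were lower in KO. The macrophage marker mean was highest on WT replicate 1 and lowest on KO replicate 4, as were 8 of the 10 genes. The fit therefore cannot separate macrophage content from genotype. With the cardiomyocyte marker mean as covariate the median of the 10 genes was -0.21 and 8 were lower in KO. Ltbp1 turned to 0.11 with that covariate, 0.17 without WT replicate 1 and 0.32 without KO replicate 3. For Ltbp1, leaving out single arrays gave -0.35 to 0.32. With the replicate 3 arrays alone the sign turned for Tgfb1 (0.14), Tgfb2 (0.19), Tgfb3 (0.25), Inhba (0.77), Ltbp3 (0.34), Tgfbr1 (0.0067) and Tgfbr3 (-0.30), the median was 0.071, 4 genes were lower in KO and S1pr1 differed by -3.65. The cause was not tested. Leaving out single arrays gave medians of -1.0 to -0.25. Scaling on the array median moved the median of all features from 0.07 to -0.04 and that of the 10 genes to -0.72, with 9 lower in KO. No paired analysis was possible because the genotypes share only the replicate number 3. Dim genes are least certain on WT replicate 1, where the lowest level flagged well above background was -4.41. On WT replicate 3 it was -6.50, and on KO replicates 3 and 4 -7.08 and -6.50.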
